A study of Mus musculus with 20 samples.

Results

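Enpp5, Enpp4, Olfr111, H2-M3, Glo1, Mydgf and Brd2 are 7 genes of mouse chromosome 17, the chromosome that carries Trem2, selected on measured values of these arrays: each differed with Trem2 genotype. They are 7 of 19751 genes named by a probe set with a single gene symbol, and 7 of 12728 genes tested after a filter on low values, of which 652 lie on chromosome 17. All 7 passed that filter. The rule names no threshold and does not say which comparison of Trem2 genotypes was used, so Trem2-/- against WT and Trem2-/-5XFAD against 5XFAD were both taken as used and are given below as descriptions with no test.

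Expression was measured on one-colour microarrays in microglia, the brain's resident macrophages, purified by FACS from littermates aged 8.5 months. The groups were WT (4 arrays), mice without functional Trem2 (Trem2-/-, 4 arrays), 5XFAD mice (5 arrays) and 5XFAD mice that also lacked Trem2 (Trem2-/-5XFAD, 6 arrays). 5XFAD mice carry neuron-expressed human amyloid precursor protein and presenilin transgenes with familial Alzheimer disease mutations and form amyloid plaques. One further array with contradictory labels entered no group. The strain of the stem cells in which Trem2 was targeted, the extent of the deletion, the sex of the animals and the sorting gate are not stated in the labels.

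Trem2 is a receptor for lipids and lipoproteins that signals through Tyrobp in microglia. When a gene is targeted in embryonic stem cells of one strain and bred into another, a stretch of chromosome around the target can stay that of the first strain, and genes in it may differ in sequence, copy number or expression between mutant and wild type animals. In these data linked DNA and the loss of Trem2 are carried by the same arrays and cannot be told apart. Glo1 encodes glyoxalase 1, which detoxifies methylglyoxal with glutathione, and lies in a segment whose copy number differs between inbred mouse strains. Brd2 encodes a bromodomain protein that binds acetylated histones, and Mydgf a secreted growth factor of myeloid cells that also resides in the endoplasmic reticulum. H2-M3 is a class Ib histocompatibility molecule that presents N-formylated peptides, and Olfr111 belongs to the olfactory receptor family of G protein-coupled receptors. Enpp4 and Enpp5 are neighbouring members of the ectonucleotide pyrophosphatase/phosphodiesterase family, and Enpp4 hydrolyses diadenosine triphosphate at the cell surface.

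Promoters are shown for some members of each direction. Glo1 was higher without Trem2 and Mydgf lower, and Olfr111 and H2-M3 were high in 5XFAD and lower without Trem2. RefSeq (GRCm38.p6) gave a promoter window for 6 of the 7 genes, from 250 bases before to 50 bases after the annotated start. The windows below are those of Glo1 (chr17:30612610-30612909, minus strand), Mydgf (chr17:56183871-56184170, minus strand), H2-M3 (chr17:37269984-37270283, plus strand) and Olfr111 (chr17:37529707-37530006, plus strand), written 5′ to 3′ along each gene, with matches to searched motifs in capitals. They are of the reference strain, not of the animals studied.
Glo1: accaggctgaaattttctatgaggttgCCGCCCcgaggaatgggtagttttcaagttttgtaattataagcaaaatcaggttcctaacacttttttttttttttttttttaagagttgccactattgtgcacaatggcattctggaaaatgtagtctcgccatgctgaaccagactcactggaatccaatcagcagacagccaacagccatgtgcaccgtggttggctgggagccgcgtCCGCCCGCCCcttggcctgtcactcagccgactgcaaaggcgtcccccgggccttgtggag
Mydgf: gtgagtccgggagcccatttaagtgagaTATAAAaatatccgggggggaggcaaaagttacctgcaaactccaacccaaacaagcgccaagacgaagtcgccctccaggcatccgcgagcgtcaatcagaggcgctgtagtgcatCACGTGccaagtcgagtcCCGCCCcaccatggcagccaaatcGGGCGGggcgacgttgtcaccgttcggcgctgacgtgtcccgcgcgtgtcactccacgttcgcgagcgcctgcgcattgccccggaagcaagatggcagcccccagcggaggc
H2-M3: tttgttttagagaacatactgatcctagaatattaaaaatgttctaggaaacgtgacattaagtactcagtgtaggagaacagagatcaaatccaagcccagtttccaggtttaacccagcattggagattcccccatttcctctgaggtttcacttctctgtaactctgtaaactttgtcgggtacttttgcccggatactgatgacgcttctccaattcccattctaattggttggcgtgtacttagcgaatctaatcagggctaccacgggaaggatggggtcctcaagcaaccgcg
Olfr111: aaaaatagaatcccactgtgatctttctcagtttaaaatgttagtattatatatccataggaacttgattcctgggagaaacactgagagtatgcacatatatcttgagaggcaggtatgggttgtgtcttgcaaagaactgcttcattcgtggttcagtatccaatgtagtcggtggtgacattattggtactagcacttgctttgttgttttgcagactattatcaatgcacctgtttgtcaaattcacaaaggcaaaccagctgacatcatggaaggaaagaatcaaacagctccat

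The motifs searched on both strands were the PU.1 (ETS) site GAGGAAGT, the interferon response element GAAANNGAA, the cAMP response element TGACGTCA, the E-box CACGTG, the GC box GGGCGG and the TATA box TATAAA. Over all 32851 promoter windows they were found in 3.2%, 8.56%, 1.79%, 7.15%, 35.7% and 13.6%. The Glo1 window held 3 GC boxes, of which the pair nearest the start overlapped. The Mydgf window held 2 GC boxes, an E-box, which reads the same on both strands, and a TATA box letter match well upstream of the start. The H2-M3 and Olfr111 windows held none of these letters, and had a GC content of 44% and 38.7% against a median of 52.7% over all windows. The Enpp4 window held 1 GC box at a GC content of 73.7%. Brd2 had several windows, with GC contents of 58.7%, 66% and 72.3%, and those of 58.7% and 66% held a GC box. These matches describe the letters of the windows.

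Before the members, the arrays were checked against their labels. Trem2 had log2 intensities of 11.37, 11.36, 11.39 and 11.14 in WT arrays and ran from 6.84 through a median of 6.99 to 7.02 in Trem2-/- arrays. It read 11.80, 11.79, 11.45, 11.67 and 11.66 in 5XFAD, and from 6.75 through a median of 6.96 to 7.60 in Trem2-/-5XFAD. Every assigned array lay on the side its label gives, and the groups with and without Trem2 did not overlap. The mean log2 level of 9 measured microglial markers was 11.34 to 11.58 in WT, 11.32 to 11.43 in Trem2-/-, 10.77 to 10.97 in 5XFAD and 11.19 to 11.26 in Trem2-/-5XFAD. In 5XFAD against WT, where these ranges did not overlap, limma called 8 of the 9 markers lower. The labels do not say whether the Trem2 probe set lies in the deleted part.

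Summed markers of several other cell types differed between groups, with overlapping ranges in some comparisons. Summed intensity of 10 neutrophil markers was 140 to 310 in WT and 314 to 2975 in Trem2-/-, and 191 to 1338 in 5XFAD against 406 to 5019 in Trem2-/-5XFAD. Summed intensity of 10 border macrophage markers was 1304 to 2112 in WT, 1444 to 2704 in Trem2-/-, 602 to 990 in 5XFAD and 1238 to 2153 in Trem2-/-5XFAD. The 8 astrocyte markers summed to 445 to 478 in WT and 273 to 422 in Trem2-/-, and to 444 to 691 in 5XFAD and 342 to 426 in Trem2-/-5XFAD. limma called 0 of 7 tested neutrophil markers in either Trem2 comparison. Of 10 border macrophage markers it called 1 higher in Trem2-/- against WT and 9 higher in Trem2-/-5XFAD against 5XFAD. Of 5 tested astrocyte markers it called 0 in the first and 2 lower in the second. Female-specific Xist signal was high in 3 of 4 WT, 3 of 4 Trem2-/-, 1 of 5 5XFAD and 0 of 6 Trem2-/-5XFAD arrays. The neutrophil and brain-cell markers were entered as covariates in alternative fits given below, and the part of the border macrophage markers in the results was not tested.

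Glo1 was higher in both groups without Trem2. Its log2 intensity was 8.27, 8.48, 8.64 and 8.76 in WT and 9.53, 9.35, 9.59 and 9.43 in Trem2-/-. It was 8.58, 8.51, 8.33, 8.34 and 8.46 in 5XFAD, and ran from 9.21 through a median of 9.42 to 9.99 in Trem2-/-5XFAD. All 10 arrays without Trem2 lay above all 9 arrays with it. The difference was 0.94 ± 0.15 on the log2 scale (SE), or 1.92-fold, for Trem2-/- against WT and 1.04 ± 0.13, or 2.05-fold, for Trem2-/-5XFAD against 5XFAD. In bulk RNA such as this, a change in the number of cells of a type and a change in RNA per cell cannot be told apart. A dimmer probe set of Glo1 was also higher without Trem2, by 1.18 and 0.55, and there 5XFAD arrays averaged 0.55 above WT arrays where the main probe set gave -0.09.

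Brd2 was also higher without Trem2, with a smaller difference than Glo1, and its highest group was Trem2-/-. Its log2 intensity was 9.80, 9.88, 9.29 and 9.64 in WT against 10.26, 10.096, 10.18 and 10.24 in Trem2-/-. It was 9.24, 9.48, 9.38, 9.60 and 9.67 in 5XFAD, and from 9.80 through 10.05 to 10.11 in Trem2-/-5XFAD. The groups compared did not overlap, although the highest WT array lay above the lowest Trem2-/-5XFAD array. Both differences came to 0.54 on the log2 scale, with SEs of 0.12 and 0.11, or 1.46-fold. The members are the chromosome 17 genes other than Trem2 with an adjusted p under 0.05 by limma in Trem2-/- against WT, and that value was therefore taken as the threshold of the choice. Brd2, the member nearest to it, stood at 0.0493 in Trem2-/- against WT, and the chromosome 17 genes just outside were Thoc6 (0.0663), H2-T24 (0.0797) and 1700010I14Rik (0.0867).

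Mydgf was lower without Trem2. Log2 intensities were 8.34, 8.15, 8.12 and 7.84 in WT and 7.22, 7.64, 7.57 and 7.03 in Trem2-/-. They were 8.03, 7.95, 8.21, 7.75 and 7.81 in 5XFAD, and from 7.30 through 7.48 to 7.78 in Trem2-/-5XFAD. WT and Trem2-/- did not overlap, whereas the highest Trem2-/-5XFAD array lay 0.03 above the lowest 5XFAD array. Trem2-/- was lower than WT by a log2 difference of -0.74 ± 0.15 (1.67-fold), and Trem2-/-5XFAD lower than 5XFAD by -0.46 ± 0.13 (1.37-fold).

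Olfr111 had the widest range over the groups. WT arrays read 5.68, 5.54, 4.42 and 4.87 and Trem2-/- arrays 3.84, 4.10, 3.94 and 3.47 on the log2 scale. 5XFAD arrays read 7.46, 6.57, 6.47, 7.61 and 7.18, and Trem2-/-5XFAD arrays ran from 4.42 through 4.52 to 4.84. The 5XFAD arrays stood above every other array, Trem2-/- arrays stood below every other array, and WT and Trem2-/-5XFAD overlapped. The difference was -1.29 ± 0.26 (2.45-fold lower) for Trem2-/- against WT and -2.51 ± 0.22 (5.70-fold lower) for Trem2-/-5XFAD against 5XFAD. The neighbouring receptor gene Olfr110, whose sequence is close enough that a probe set may report both, averaged 4.53 ± 0.22 (SD, n = 4) in WT, 4.15 ± 0.41 in Trem2-/- (n = 4), 5.97 ± 0.35 in 5XFAD (n = 5) and 4.47 ± 0.29 in Trem2-/-5XFAD (n = 6). Its Trem2 differences were -0.38 ± 0.21 and -1.50 ± 0.18.

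H2-M3 followed the same order as Olfr111. Log2 intensities were 7.24, 7.42, 6.93 and 7.69 in WT and 6.53, 6.70, 6.60 and 6.08 in Trem2-/-. They were 8.69, 8.23, 8.14, 8.01 and 8.06 in 5XFAD and ran from 6.75 through 6.89 to 7.29 in Trem2-/-5XFAD. Again 5XFAD was highest and Trem2-/- lowest without overlap with any group, and WT overlapped with Trem2-/-5XFAD. The differences were -0.84 ± 0.18 (1.79-fold lower) without 5XFAD and -1.27 ± 0.15 (2.41-fold lower) with it. H2 genes share long stretches of sequence, so this probe set may also report relatives of H2-M3.

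Enpp5 had the largest difference of the members in Trem2-/- against WT. It read 6.28, 5.70, 6.44 and 6.17 in WT and 3.83, 4.06, 4.54 and 4.41 in Trem2-/-. It read 4.99, 5.43, 4.83, 4.82 and 4.88 in 5XFAD and from 3.95 through 4.33 to 4.44 in Trem2-/-5XFAD. WT stood above 5XFAD, 5XFAD above both groups without Trem2, and these last overlapped. The difference was -1.94 ± 0.18 (3.83-fold lower) for Trem2-/- against WT and -0.71 ± 0.15 (1.63-fold lower) for Trem2-/-5XFAD against 5XFAD. The lowest levels of Enpp5, and those of Olfr111 above, lay near or below the 40th percentile of an array, 16.9 to 19.2 intensity units, the level used as the filter on low values.

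Enpp4, the gene beside Enpp5, was lower without Trem2 in the groups without 5XFAD, and its groups with 5XFAD overlapped. It read 5.82, 6.31, 6.35 and 5.99 in WT and 4.90, 4.91, 4.72 and 5.09 in Trem2-/-. It read 5.82, 5.30, 5.29, 5.57 and 5.22 in 5XFAD and from 5.27 through 5.57 to 5.95 in Trem2-/-5XFAD. The Trem2-/- arrays lay below every other array, while most arrays of 5XFAD and Trem2-/-5XFAD shared one range. The differences were -1.21 ± 0.16 (2.31-fold lower) and 0.15 ± 0.13, the latter with a 95% confidence interval of -0.13 to 0.43.

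**Figure D1:**
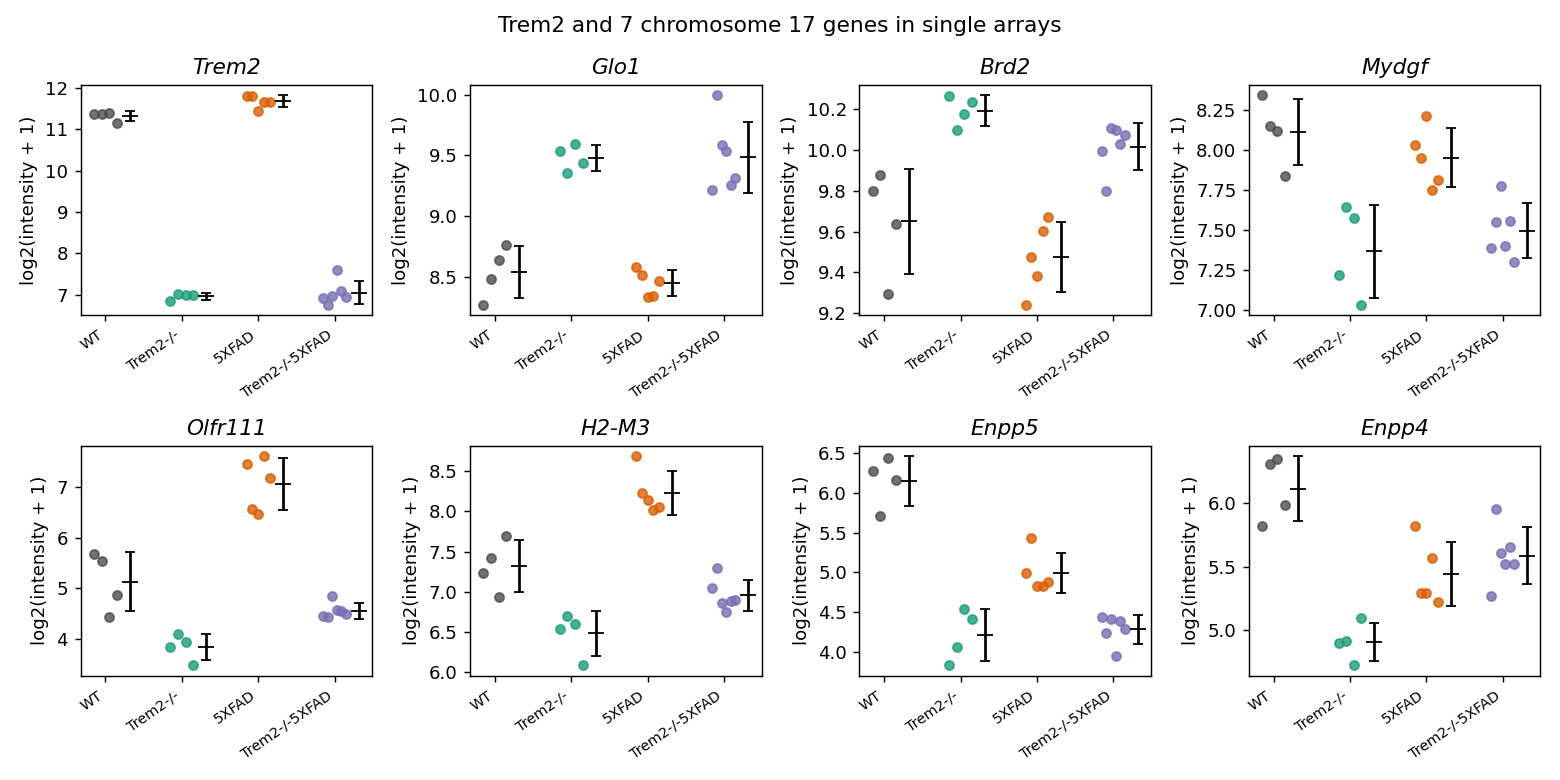
Log2(intensity + 1) of Trem2 and the 7 genes in each of 19 arrays, by genotype. Points are arrays and bars show mean ± SD beside each group; each panel has its own axis, which does not start at 0. Glo1 lies between 8.27 and 8.76 in arrays with Trem2 and between 9.21 and 9.99 in arrays without it.

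With that assumed threshold, limma called all 7 members in Trem2-/- against WT (2 higher, 5 lower), where it called 0.613% of all genes. It called 6 of 7 in Trem2-/-5XFAD against 5XFAD (2 higher, 4 lower), where it called 7.68% of all genes, the exception being Enpp4. These counts restate the choice. The call of all 7 did not hold under other settings. Fitting only WT and Trem2-/- arrays called 3 members and 11 of 12728 genes, where the main fit called 78 genes. The neutrophil covariate called 3 members and 23 genes, and the brain-cell covariate 17 genes and 3 members. Those 3 were Enpp5, Enpp4 and Glo1, which were also called in each of 19 fits that left out 1 array, whereas 3 members were called without Trem2-/- 1 or without Trem2-/- 4. Brd2 was called in 4 of those 19 fits. On arrays without high Xist, where WT and Trem2-/- keep 1 array each and take their spread from the other groups, none of Enpp5 (-1.29), Enpp4 (-1.22) and Glo1 (0.95) was called, and Olfr111 (-2.07) and H2-M3 (-1.34) were the 2 members called.

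Between animals without and with 5XFAD the Trem2 difference was closest for Brd2 and, by its main probe set, Glo1. The change in it, the Trem2 difference with 5XFAD minus that without, was 0.00 ± 0.16 for Brd2 on the log2 scale and 0.09 ± 0.19 for Glo1, with 95% confidence intervals of -0.34 to 0.34 and -0.31 to 0.50. The dimmer Glo1 probe set gave Trem2 differences of 1.18 without 5XFAD and 0.55 with it. The change was 1.36 ± 0.21 for Enpp4 and 1.23 ± 0.23 for Enpp5, whose differences were smaller with 5XFAD. It was -1.22 ± 0.34 for Olfr111 and -0.43 ± 0.23 for H2-M3, and 0.29 ± 0.20 for Mydgf. limma called this change for 2 members, Enpp4 and Enpp5, and for 2.6% of all genes. Since it is built from the differences that chose the members, no support is drawn from it.

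**Figure D2:**
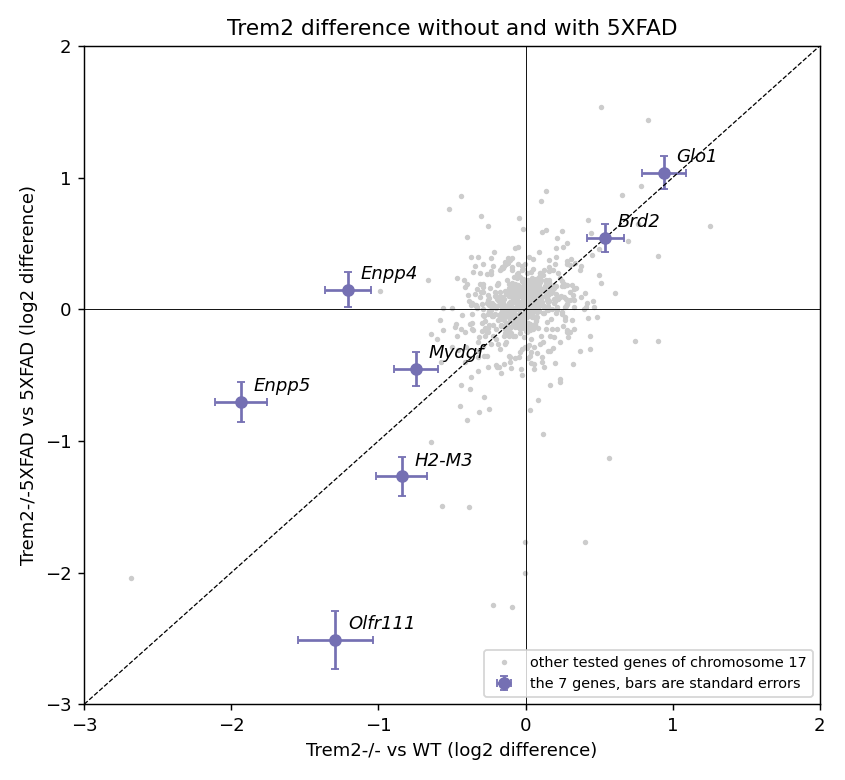
Trem2 difference (log2) without 5XFAD on the x axis and with 5XFAD on the y axis, for the 7 genes with standard errors and, in grey, the other tested genes of chromosome 17 except Trem2, which lies outside the axes. Glo1 and Brd2 sit near the dashed line of equal differences, Enpp4 at -1.21 and 0.15, and Olfr111 at -1.29 and -2.51. Glo1 is shown by its main probe set.

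The members were then placed in gene order on chromosome 17, counting tested genes only. Trem2 was the gene at place 486 of 652. Glo1 lay 246 places before it, Brd2 184, H2-M3 79, Olfr111 76, Enpp5 68 and Enpp4 67, and Mydgf lay 33 places after it. Both members higher without Trem2 lay farthest away, and the 5 lower members lay within 100 places of Trem2. In Trem2-/- against WT the members and Trem2 were the 8 genes of the chromosome called, so none of the 20 genes within 10 places of Trem2 was called. From Glo1 to Mydgf 7 of 279 genes other than Trem2 were called (2.51%, all members), with 239 tested genes before Glo1 and 133 after Mydgf. The ends of this interval are the outermost called genes, so its share and the absence of calls outside it follow from the choice. Chromosome 17 without Trem2 had 1.08% called, other chromosomes together 0.58%, and chromosome 18 had the highest share, 2.36% of 297 genes. These shares rest on few genes: the chromosome 17 count was 4 without Trem2-/- 1 and 15 without WT 2. It was 22 when 4 arrays (WT 1, WT 2, 5XFAD 1 and 5XFAD 2) were left out for salivary gland transcripts. Over all chromosomes these fits called 30, 160 and 274 genes in turn, against 78 in the main fit. The summed intensity of 8 salivary gland markers, chosen after earlier results, reached 3306 in WT and 2132 in 5XFAD. It also reached 933 in Trem2-/-, whose arrays were all kept, against 100 in Trem2-/-5XFAD.

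With 5XFAD, many more genes of the chromosome differed with Trem2 genotype. Of 64 called genes 6 were members, and 7 genes, those 6 and Trem2, were called in the same direction in both Trem2 comparisons. Within 10 places of Trem2, 6 of 20 genes were called. From Glo1 to Mydgf the share was 13.6% of 279 genes, and 32 of the 38 called genes were not members. The choice set the ends of this interval, and its share includes the 6 called members. The share was 6.28% before Glo1, 7.52% after Mydgf, 9.68% on chromosome 17 without Trem2 and 7.56% on all other chromosomes. These shares are descriptions, and no support is drawn from them. After Trem2 and Olfr111 the largest called differences were those of the class II antigen presentation genes H2-Aa (-2.27 ± 0.25), H2-Ab1 (-2.25 ± 0.25) and H2-Eb1 (-2.01 ± 0.24), whose differences in Trem2-/- against WT were -0.09, -0.22 and -0.01. The chromosome 17 count was 33 with the brain-cell covariate, which called 493 genes over all chromosomes against 977 in the main fit.

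**Figure D3:**
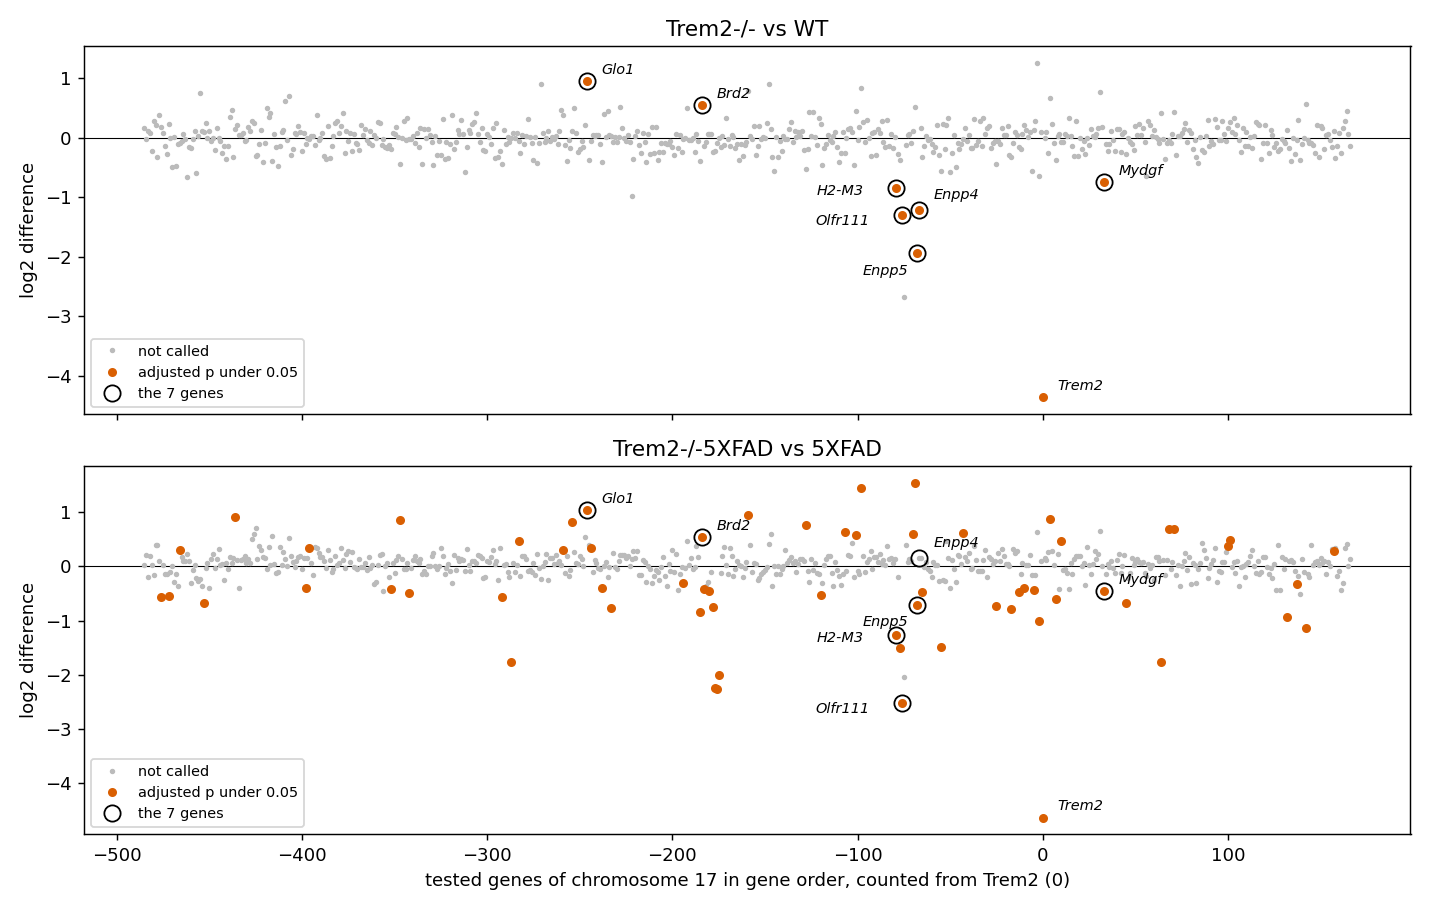
Log2 difference of each of 652 tested chromosome 17 genes against its place from Trem2 (0) in gene order, for Trem2-/- against WT (top) and Trem2-/-5XFAD against 5XFAD (bottom). Orange points are called at an adjusted p under 0.05 by limma and rings mark the 7 genes. In the top panel the 8 orange points are Trem2 and the 7 genes; in the bottom panel there are 64.

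Direct neighbours shared a member's direction in some cases and not in others. Next to Trem2, the receptor gene Treml1 differed by -0.01 ± 0.12 in Trem2-/- against WT. Nfya, a transcription factor subunit, differed by 0.10 ± 0.16, and Treml4 by 1.26 ± 0.34. Treml4 read 3.17 to 3.45 in WT and 3.10 to 3.60 in 5XFAD, all below the filter on low values. It passed that filter through arrays without Trem2, 3.77 to 5.70 in Trem2-/- and 3.52 to 5.37 in Trem2-/-5XFAD. Treml2, another receptor of the cluster, averaged 6.22 ± 0.20 in WT (SD, n = 4), 5.57 ± 0.55 in Trem2-/- (n = 4), 7.39 ± 0.28 in 5XFAD (n = 5) and 6.38 ± 0.11 in Trem2-/-5XFAD (n = 6). Beside Glo1, Btbd9 differed by 0.22 ± 0.20 and the cholesterol exporter gene Abcg1 by -0.37 ± 0.16 in Trem2-/- against WT. Beside Enpp4 and Enpp5, Clic5 differed by 0.17 ± 0.11 and the lipoprotein-associated phospholipase gene Pla2g7 by 0.51 ± 0.28, and Pla2g7 was higher by 1.53 ± 0.24 in Trem2-/-5XFAD than in 5XFAD. Beside Mydgf, Tnfaip8l1 and Dpp9 differed by 0.18 ± 0.17 and -0.10 ± 0.14. Beside Brd2, H2-Oa and H2-DMa differed by -0.40 ± 0.15 and -0.15 ± 0.11 in Trem2-/- against WT. Beside H2-M3, Olfr96 and Olfr99 differed by 0.01 ± 0.13 and -0.27 ± 0.23 there. Beside Olfr111, Crisp3 differed by -2.68 ± 1.33. Its WT arrays spread from 2.10 to 8.49, on both sides of its Trem2-/- arrays at 2.42 to 2.59. In Trem2-/-5XFAD against 5XFAD limma called Treml2 (-1.01 ± 0.17), Olfr110, H2-Oa (-0.84 ± 0.13) and H2-DMa (-0.42 ± 0.09) lower and Pla2g7 higher. Of these neighbours limma called none in Trem2-/- against WT. That follows from the choice, since the genes called on the chromosome are Trem2 and the members.

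The 5XFAD transgenes offered a comparison other than the one that chose the members. The mean of 5XFAD minus WT and Trem2-/-5XFAD minus Trem2-/- gives the same sign to arrays with and without Trem2, so that the equal groups of 4 WT and 4 Trem2-/- arrays do not carry their selected difference into it, and the 5 5XFAD and 6 Trem2-/-5XFAD arrays carry little of theirs. The arrays are the same ones. limma called 3 of 7 members here (2 higher, 1 lower), against 16.3% of all genes. Olfr111 rose by 1.32 ± 0.17 on the log2 scale (2.50-fold, limma adjusted p = 8.66e-06), and H2-M3 rose by 0.69 ± 0.12 (adjusted p = 0.000215). In both genes every 5XFAD array lay above every WT array, and every Trem2-/-5XFAD array above every Trem2-/- array. The latter gap was 0.05 for H2-M3, and limma called neither gene in Trem2-/-5XFAD against Trem2-/-. Enpp5 fell by 0.54 ± 0.12 (limma adjusted p = 0.00254), with no overlap between 5XFAD and WT and an overlap between the groups without Trem2. In the same comparison 8 of 9 microglial markers fell, with a median of -0.30, and their part in these differences was not tested.

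The other 4 members were not called. Their mean 5XFAD differences had 95% confidence intervals of -0.25 to 0.16 for Glo1, -0.22 to 0.19 for Mydgf, -0.35 to -0.01 for Brd2 and -0.21 to 0.22 for Enpp4. Among all alternatives run, limma called Brd2 once, when WT 3 was left out (adjusted p = 0.0391). For Enpp4 the mean hid opposite signs, -0.68 ± 0.15 for 5XFAD minus WT and 0.68 ± 0.14 for Trem2-/-5XFAD minus Trem2-/-. For Enpp5 these were -1.16 ± 0.17 and 0.08 ± 0.16, for Olfr111 1.93 ± 0.24 and 0.71 ± 0.23, and for H2-M3 0.90 ± 0.17 and 0.48 ± 0.16. Each of these single differences shares a group with the comparisons that chose the members. limma called 4 members in the first, where it called 15% of all genes, and 1, Enpp4, in the second, where it called 2.18%.

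Arrays with high Xist were concentrated in the groups without 5XFAD. With Xist as a covariate the mean 5XFAD difference was 1.41 for Olfr111 and 0.89 for H2-M3, and on arrays without high Xist alone, with 1 WT and 1 Trem2-/- array left, it was 1.25 and 0.78. For Enpp5 it was -0.49 with the covariate and -0.42 on those arrays. On those arrays limma called the first 2 and not Enpp5, with the 2 lone arrays assumed to vary like the other groups.

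**Figure D4:**
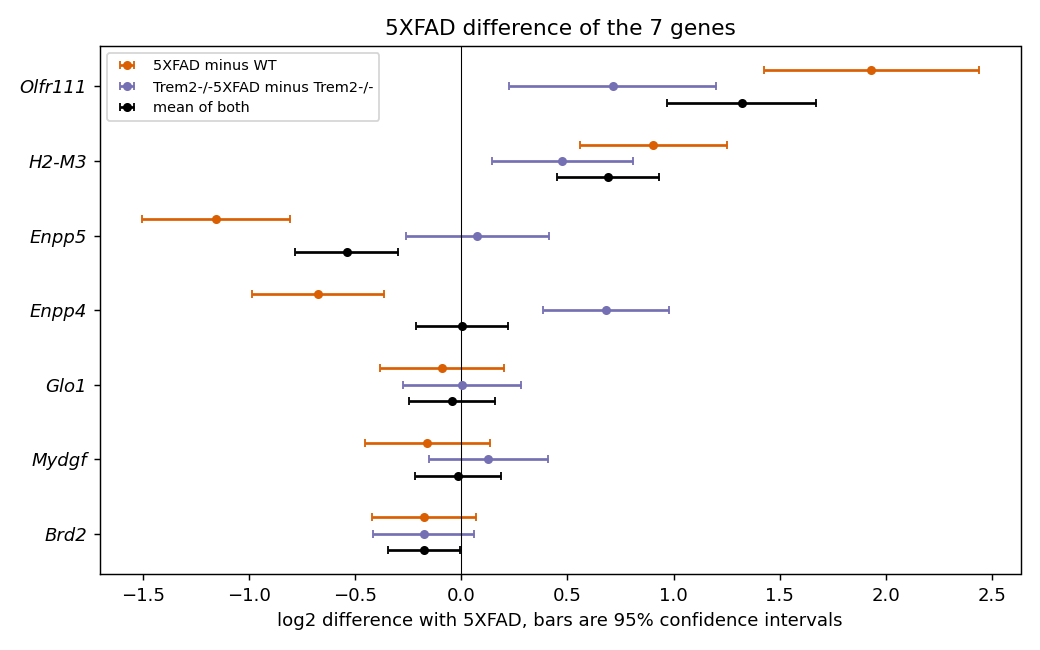
Log2 difference with 5XFAD for the 7 genes, for arrays with Trem2 (orange), without Trem2 (purple) and their mean (black), with 95% confidence intervals from limma's standard errors. The means of Olfr111 (1.32) and H2-M3 (0.69) lie above 0 and that of Enpp5 (-0.54) below it, and the single differences of Enpp4 lie on opposite sides of 0.

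Gene lists of each member's biochemical surroundings were counted beside it. The lists were chosen with results of these arrays known, and counts in the mean 5XFAD difference stand beside a share of 16.3% called over all genes. In the Trem2 comparisons a member's own call within its list restates the choice. The shares over all genes there were 0.613% in Trem2-/- against WT and 7.68% in Trem2-/-5XFAD against 5XFAD. Of 16 tested genes of methylglyoxal and glutathione metabolism, Glo1 was the 1 called in either Trem2 comparison, and the median difference of the list was 0.00 in Trem2-/- against WT, where that of all genes was -0.01. In the mean 5XFAD difference 2 of the 16 rose: Aldh2, an aldehyde dehydrogenase, by 0.67 ± 0.15 (limma adjusted p = 0.0038), and Akr1a1, an aldehyde reductase, by 0.34 ± 0.06 (adjusted p = 0.000399). That count is a smaller share than that of all genes, and the median of the list was 0.03. Of 15 tested bromodomain and P-TEFb genes, which control transcription elongation, Brd2 was the 1 called in Trem2-/- against WT. In Trem2-/-5XFAD against 5XFAD, Mepce was also higher (0.52 ± 0.11), and Ell2 (-0.80 ± 0.22) and Larp7 (-0.66 ± 0.19) were lower. The median of that list was 0.26 and 0.02 in the 2 comparisons, beside -0.01 and 0.04 over all genes. In the mean 5XFAD difference 3 of the 15 rose and none fell, Ell2 by 1.16 ± 0.17 (limma adjusted p = 5.82e-05) and Larp7 by 0.57 ± 0.14 (adjusted p = 0.00793) among them. That share is near that of all genes, and the median of the list was -0.06.

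Of 13 tested endoplasmic reticulum retention and chaperone genes, Mydgf was the 1 called in Trem2-/- against WT, and Mydgf and the chaperone cofactor gene Sdf2l1 (-0.67 ± 0.14) were called lower in Trem2-/-5XFAD against 5XFAD. Sdf2l1 was also the 1 that rose in the mean 5XFAD difference, by 0.42 ± 0.11 (limma adjusted p = 0.00963). Of 3 tested Enpp family genes the one that is no member, Enpp7, differed by -0.12 ± 0.14 and 0.17 ± 0.12 in the Trem2 comparisons. Of 16 tested genes of extracellular nucleotide and nucleoside handling, 1 was called in Trem2-/- against WT, the nucleotidase gene Entpd4 (-0.66 ± 0.12). In Trem2-/-5XFAD against 5XFAD 3 were higher, P2ry12 (0.46 ± 0.10), P2ry13 (0.54 ± 0.10) and P2rx7 (0.44 ± 0.12). There 2 were lower, Entpd4 (-0.62 ± 0.10) and P2rx4 (-0.58 ± 0.10). In the mean 5XFAD difference 2 of these 16 rose and 7 fell, where the list's median was -0.14 and that of all genes 0.00. The ATP-gated channel gene P2rx4 rose by 0.67 ± 0.08 (limma adjusted p = 3.51e-06), and the microglial nucleotide receptor gene P2ry12 fell by 0.51 ± 0.08 (adjusted p = 5.34e-05).

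Of 18 measured class Ib histocompatibility genes 7 were tested, and H2-M3 was the 1 called in Trem2-/- against WT. In Trem2-/-5XFAD against 5XFAD, H2-T24 was called in the opposite direction (1.43 ± 0.18). H2-Q2 rose with H2-M3 in the mean 5XFAD difference, by 0.29 ± 0.09 (limma adjusted p = 0.0277). Of 15 tested class I heavy chain and peptide-loading genes 0 were called in Trem2-/- against WT, the proteasome genes Psmb8 (-0.45 ± 0.11) and Psme2 (-0.48 ± 0.12) were lower in Trem2-/-5XFAD against 5XFAD, and 6 rose and none fell in the mean 5XFAD difference. Psmb8 rose by 0.55 ± 0.09 (limma adjusted p = 0.00011). Of the formyl peptide receptors 1 of 4 measured was tested, Fpr-rs3, with differences of 0.18 ± 0.17 and 0.14 ± 0.14. Of 43 olfactory receptor genes of chromosome 17, 9 were tested, and Olfr111 and Olfr110 were the 2 called lower in Trem2-/-5XFAD against 5XFAD and the 2 called higher in the mean 5XFAD difference, Olfr110 by 0.88 ± 0.14 (limma adjusted p = 0.00011). The medians of the 9 genes in these comparisons were 0.07 and 0.09, beside 0.04 and 0.00 over all genes.

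The genes whose log2 levels followed each member most closely were mostly on other chromosomes, as most tested genes are. Chromosome 17 holds 652 of the 12728 tested genes. Pearson's r over 19 arrays is given as a description, since the arrays share the 4 genotypes. The Glo1 pattern was most like those of Rasgrf2 (r = 0.90), a Ras exchange factor gene, and Nnt (r = 0.90), both on chromosome 13, and Emp3 on chromosome 7 (r = 0.87). Nnt encodes the mitochondrial transhydrogenase that makes NADPH, and the C57BL/6J strain carries a deletion in it. Nnt averaged 6.04 ± 0.22 in WT (SD, n = 4), 6.80 ± 0.10 in Trem2-/- (n = 4), 5.87 ± 0.17 in 5XFAD (n = 5) and 6.78 ± 0.21 in Trem2-/-5XFAD (n = 6), without overlap between groups with and without Trem2. The differences were 0.76 ± 0.14 and 0.92 ± 0.12 for Nnt and 2.53 ± 0.25 and 2.91 ± 0.21 for Rasgrf2.

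Brd2 was most like Wsb1 (r = 0.93), Mknk2, a kinase gene of translation control (r = 0.91), and Trafd1 (r = 0.90). Mydgf was most like Rsl24d1 (r = 0.85), G530011O06Rik (r = 0.83) and Yif1a (r = 0.83). G530011O06Rik, annotated to chromosome X, also ranked for Enpp5 (r = 0.85), after Prrc2b (r = 0.88) and before Fam167b (r = 0.81). It was lower without Trem2 by -6.85 ± 0.29 and -4.74 ± 0.25 on the log2 scale, more than Trem2 itself (-4.36 ± 0.14 and -4.63 ± 0.12). Enpp4 had the weakest companions, Comtd1 (r = 0.78), Ano10 (r = 0.77) and Ctbs (r = 0.77). Olfr111 was most like Ccrl2, an atypical chemokine receptor gene (r = 0.94), Vegfa, the vascular growth factor gene on chromosome 17 (r = 0.94), and Pea15a (r = 0.93). H2-M3 was most like Pea15a (r = 0.93), Eif3k (r = 0.93) and Procr, which encodes the protein C receptor (r = 0.92). Vegfa was lower by -1.49 ± 0.16 in Trem2-/-5XFAD than in 5XFAD, and Procr by -1.11 ± 0.15.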

How the data were processed

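Microglial RNA was hybridised to 20 one-colour arrays, from 2 ng of total RNA each, per the labels' protocols. The deposited table holds linear intensity values of 24679 probe sets, whose column medians of 25.7 to 28.6 lie on a common scale. The software and the normalization behind them were in no source used here. A probe set was used where the platform annotation gave it 1 gene symbol (21354 probe sets, 1275 with several and 2050 with none); each gene was represented by its highest-mean probe set.

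Values were taken as log2(intensity + 1). Genes above the array's 40th percentile in at least 4 arrays entered 1 model of 4 groups over 19 arrays (limma 3.58.1, R 4.3.3; 15 residual degrees of freedom), with Benjamini-Hochberg adjustment over 12728 genes and calls at an adjusted p under 0.05. Fold changes are on the log2(intensity + 1) scale and understate those of dim genes. The fit was tested on simulated data. The labels call the animals littermates and do not say that each array is a separate animal; p-values measure the spread between arrays. The number of arrays limits the precision.

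The members and the gene lists were chosen with earlier results of these data known. Named genes were, by rule, the members, Trem2, direct neighbours in gene order, the largest called differences on chromosome 17, genes called alike in both Trem2 comparisons, the 3 genes most correlated with each member and, of each list, those called in a Trem2 comparison and the 2 of smallest p in the mean 5XFAD difference. The chromosome 17 genes nearest outside the threshold are named beside it. Gene order came from a RefSeq table whose coordinates were not used; promoter windows came from RefSeq GRCm38.p6. Alternatives were another pseudocount, filter, normalization and probe-set rule, fewer groups, a replicate block, placing the array with contradictory labels in either group, marker covariates, Xist, and leaving out arrays.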

Additional observations from a re-analysis of the deposited data

Results flagged for a closer look

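In 4 cases a single array stood apart from the others of its group by Dixon's criterion, among 32 combinations of gene and group examined, of which chance flags about 1 in 20. Trem2 was 11.14 in WT 4, below the other WT arrays. Enpp5 was 5.43 in 5XFAD 2, above the other 5XFAD arrays. Olfr111 was 4.84 in Trem2-/-5XFAD 3, above, and Brd2 was 9.80 in Trem2-/-5XFAD 2, below the others of that group.

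The Trem2 difference with 5XFAD minus that without was 1.23 for Enpp5 and 1.36 for Enpp4, the members past limma's threshold for this change. It is built from the differences taken to have chosen the members, so it is given as a description, with no test. On arrays without high Xist, with 1 WT and 1 Trem2-/- array left, it was 0.58 for Enpp5 and 1.46 for Enpp4.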

How the results depend on the processing

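The limits are the number of arrays (4 to 6 a group), the uneven Xist signal and the closeness of several calls to the threshold. In Trem2-/- against WT, 7 members and 8 genes of chromosome 17 were called; the counts were 3 and 4 with only the 2 groups in the fit, with the contradictory array in Trem2-/-, with the neutrophil covariate and with the brain-cell covariate, and 2 and 5 on arrays without high Xist. The chromosome count was 22 without the salivary arrays, meaning the WT and 5XFAD arrays left out above for salivary transcripts. With the replicate block the counts were 4 and 5; same-numbered arrays did not meet the rule for pairing (lowest correlations from -0.104 to 0.095 over the pairs of groups), although those of WT and 5XFAD averaged 0.131 against -0.032 for other numbers, and the salivary arrays are numbers 1 and 2 of these groups. In Trem2-/- against WT, calls over all genes were 78 in the main fit and 11 with only the 2 groups. They were 62 with the contradictory array in Trem2-/-, 23 and 17 with the neutrophil and brain-cell covariates, and 274 without the salivary arrays. The contradictory array had a Trem2 level of 11.08, where Trem2-/- arrays ran from 6.84 to 7.02. In Trem2-/-5XFAD against 5XFAD the brain-cell covariate gave 33 genes of the chromosome, and 493 over all genes against 977 in the main fit. Leaving out 1 array gave 3 to 7 members and 4 to 15 genes of the chromosome in Trem2-/- against WT. In Trem2-/-5XFAD against 5XFAD it gave 5 to 6 members and 45 to 68 genes. In 5XFAD against WT, 4 members were called in every such fit and 2 on arrays without high Xist. In Trem2-/-5XFAD against Trem2-/- the count of 1 became 2 with only these groups, 2 without the salivary arrays, 0 with the contradictory array in Trem2-/- or Xist as covariate, and 0 to 1 leaving out 1 array (0 without Trem2-/- 3). The mean 5XFAD count was 3 to 4 and the count for the change in Trem2 difference 2 to 3 leaving out 1 array; the latter was 1 with the contradictory array in WT and 0 on arrays without high Xist. Values that changed sign were small and not called. For 5XFAD against WT they were Glo1 at 0.23 (mean of probe sets) and Brd2 at 0.087 (without salivary arrays). For Trem2-/-5XFAD against Trem2-/-, Enpp5 was -0.11 (contradictory array in Trem2-/-), -0.13 (no high Xist) and -0.14 (brain-cell covariate), with -0.052 to 0.18 leaving out 1 array, and Glo1 was -0.0039 (median centring), -0.036 (mean of probe sets) and -0.035 (brain-cell covariate), with -0.099 to 0.058. For the mean 5XFAD difference, Enpp4 was -0.020 (pseudocount 16), -0.028 (quantile normalization), -0.017 (median centring), -0.10 (contradictory array in Trem2-/-), -0.24 (no high Xist) and -0.061 (without salivary arrays), with -0.046 to 0.042. Glo1 was 0.10 (mean of probe sets), 0.067 (contradictory array in Trem2-/-), 0.0041 (replicate block) and 0.016 (Xist covariate). Mydgf was 0.033 (contradictory array in WT), 0.018 (replicate block), 0.084 (Xist covariate), 0.12 (no high Xist), 0.037 (without salivary arrays) and 0.018 (brain-cell covariate), with -0.072 to 0.029. For the change in the Trem2 difference, H2-M3 was 0.19 (no high Xist), Glo1 -0.27 (mean of probe sets), with -0.0075 to 0.18, and Brd2 0.089 (quantile normalization), 0.023 (median centring), 0.073 and 0.032 (contradictory array in WT and Trem2-/-), 0.12 (no high Xist) and 0.0045 (brain-cell covariate), with -0.077 to 0.12. The cause of these moves was not tested.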

Other observations

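One array had a title naming it WT and a genotype label of Trem2-/-, and was left out of all groups. Its Trem2 level was 11.08 on the log2 scale, where WT arrays ran from 11.14 to 11.39 and Trem2-/- arrays from 6.84 to 7.02. Its Glo1 level was 8.37, its Enpp4 level 5.98 and its H2-M3 level 7.33, each within the WT range. Its Olfr111 level of 5.86 lay above all WT and Trem2-/- arrays, its Enpp5 level of 5.15 and its Brd2 level of 10.02 lay between the ranges of these groups, and its Mydgf level of 7.62 lay within the Trem2-/- range.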
